A study of Mus musculus with 8 samples.

Results

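Genes of tumour necrosis factor (TNF), interleukin-6 (IL-6) and interleukin-10 (IL-10) signalling were examined in macrophages of obese adipose tissue that lacked or retained the Mirc11 and Mirc22 clusters, which encode microRNAs of the families miR-23, miR-27 and miR-24. The members were chosen by symbol: 10 genes, all 10 of which have a row among the 15867 genes of the deposited table and passed the filter on low values. They comprise the cytokines Tnf, Il6, Il10 and Osm (oncostatin M), the receptor chains Tnfrsf1a, Tnfrsf1b, Il6ra, Il6st and Il10ra, and the feedback inhibitor Socs3. RNA came from F4/80-positive cells of mice fed a high-fat diet for 20 weeks, as 4 control and 4 knockout libraries. All 8 libraries came from animals with loxP-flanked Mirc11 and Mirc22 alleles (Mirc11fl/fl Mirc22fl/fl), and the controls were Lyz2+/+. The knockout group was Lyz2Cre/Cre, in which Cre recombinase is expressed from the lysozyme M locus of myeloid cells, neutrophils included, and replaces the Lyz2 coding function. No group carried Cre with intact clusters, so loss of the clusters, Cre and loss of Lyz2 cannot be told apart. The labels give neither the animals' age nor whether a replicate is 1 animal or a pool, so p-values measure only the spread between these samples.

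TNF is made as a membrane protein and shed by a protease. It binds TNFR1 (Tnfrsf1a), a widely expressed receptor with a death domain, and TNFR2 (Tnfrsf1b), which is enriched on immune and endothelial cells and has no death domain. IL-6 binds IL-6Rα (Il6ra) and then pairs with gp130 (Il6st), a signal-transducing chain shared with oncostatin M and other cytokines of the family, while IL-10 binds IL-10Rα (Il10ra) together with IL-10Rβ (Il10rb). Both routes activate STAT3 and induce Socs3, which blocks gp130 but not the IL-10 receptor. In obese adipose tissue TNF and IL-6 are known for their association with insulin resistance, and IL-10 for restraining macrophage activation.

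The mature sequences of the deleted microRNAs are shown because their seeds (bases 2 to 8, in capitals) define the matches searched in the members. RefSeq (GRCm38.p6) entries of the 3′ arm were matched for 5 of the 6 hairpin genes. The miR-27a and miR-27b arms share a seed, and Mir24-1 and Mir24-2 give the same mature sequence. The miR-23 family also includes miR-23b-3p.
mmu-miR-23a-3p: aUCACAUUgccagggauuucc
mmu-miR-27a-3p: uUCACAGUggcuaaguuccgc
mmu-miR-27b-3p: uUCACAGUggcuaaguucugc
mmu-miR-24-3p: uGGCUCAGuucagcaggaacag

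The longest annotated 3′ UTR of each gene (GENCODE M21, mm10; at least 30 bases) was searched on the transcript strand for AATGTGA (miR-23), ACTGTGA (miR-27) and CTGAGCC (miR-24), the complements of these seeds. Among 14776 tested genes, 16.7%, 17.8% and 19.1% held the respective word and 40.9% held at least 1 of them. Of the 10 members, 6 held a match, and Tnf, Il6, Il10 and Socs3 held none. Tnfrsf1b and Il10ra had 3 each, 1 for miR-27 and 2 for miR-24, in UTRs of 2324 and 1693 bases, where 58.9% and 49.6% of genes with a UTR within 25% of that length had at least 1 match. Il6ra and Il6st had 1 each for miR-23, in UTRs of 7102 and 5641 bases, where the same share was 87.0% and 84.0%. Tnfrsf1a had 1 for miR-24 (490 bases, 19.2%) and Osm 1 for miR-27 (1017 bases, 35.3%). The windows below show the matches of the 3 receptor genes whose counts did not overlap between groups, with the seed match in capitals and also the following A where it is present. The miR-24 windows of Tnfrsf1b overlap, as their matches begin at UTR bases 1391 and 1402.
Tnfrsf1b, miR-27, chr4:145214925-145214931, minus strand: tccgggttaggcACTGTGAgtt
Tnfrsf1b, miR-24, chr4:145214390-145214396, minus strand: ttgttttgtacaCTGAGCCctg
Tnfrsf1b, miR-24, chr4:145214379-145214385, minus strand: actgagccctggCTGAGCCAcc
Il10ra, miR-27, chr9:45255421-45255427, minus strand: ttctgcagacctACTGTGAcca
Il10ra, miR-24, chr9:45255181-45255187, minus strand: gtctgaagtcagCTGAGCCtgg
Il10ra, miR-24, chr9:45254295-45254301, minus strand: ggctgctgatccCTGAGCCcag
Il6ra, miR-23, chr3:89870612-89870618, minus strand: aagcagtttttaAATGTGAAtg
Coordinates are those of the 7-base match. A match is a description of the sequence and not evidence of binding.

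Recovered depth ran from 31789395 to 46621080 reads per library. Lyz2 measured 156727 to 204853 in the control libraries and 174 to 273 in those of the knockout group, and no label goes against its genotype there. Values below are normalized counts with n = 4 per group. A difference is the knockout mean minus the control mean on the scale log2(normalized count + 1). It was fitted by limma, and p-values were adjusted (Benjamini-Hochberg) over the 15862 genes tested. In that fit 3.61% of all genes passed at 0.05 (196 higher, 377 lower). With each library scaled to the same total the split was 245 higher and 244 lower.

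Of the 10 members, Tnfrsf1b fell in the knockout group and 9 did not pass. The share that passed as lower over all genes was 2.38%. Control and knockout values did not overlap for 3 members, Tnfrsf1b, Il10ra and Il6ra, all lower in the knockout libraries, against 8.21% of all genes in that direction and 13.7% in either. The same 3 were the members with an unadjusted limma p under 0.05, which 21.2% of all genes had, and 0 members were higher at that level. The authors' deposited table lists the same 3 at an adjusted p under 0.05, where 10.9% of its genes are listed. The median difference of the members was -0.020, and that of all genes 0.0021.

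Tnfrsf1b, the TNFR2 gene (chromosome 4, 145213463 to 145246870, mm10), measured 12204, 11593, 11966 and 14162 across control libraries 1 to 4. In knockout libraries 1 to 4 it measured 9977, 9278, 10114 and 9668. Every knockout library lay below every control library. The difference was -0.35 (SE 0.07, limma adjusted p = 0.0322), a fold of 0.784 with a 95% confidence interval of 0.703 to 0.875. The authors' deposited table gives -0.35 for knockout over control with an adjusted p of 0.000164. In the fits that left out 1 library the difference stayed between -0.39 and -0.29, and the adjusted p exceeded 0.05 in 6 of 8 (up to 0.0771).

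Tnfrsf1a, which encodes TNFR1 (chromosome 6, 125349362 to 125362484), measured 7867, 8446, 8498 and 8773 in control and 9322, 7972, 8372 and 8417 in knockout replicates 1 to 4. The groups overlapped throughout. The difference was 0.020 (SE 0.061, limma adjusted p = 0.887), with a 95% confidence interval of the fold of 0.921 to 1.12. Its sign turned without control replicate 1 (-0.011) or knockout replicate 1 (-0.024). The ratio of Tnfrsf1b to Tnfrsf1a within a library, which does not depend on how libraries are scaled, was 1.55, 1.37, 1.41 and 1.61 in control and 1.07, 1.16, 1.21 and 1.15 in knockout replicates 1 to 4. The ratio was thus lower in each knockout library than in any control library. It was computed after the values had been seen and is given without a test. The share of all gene pairs whose ratio does not overlap was not computed.

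**Figure D1:**
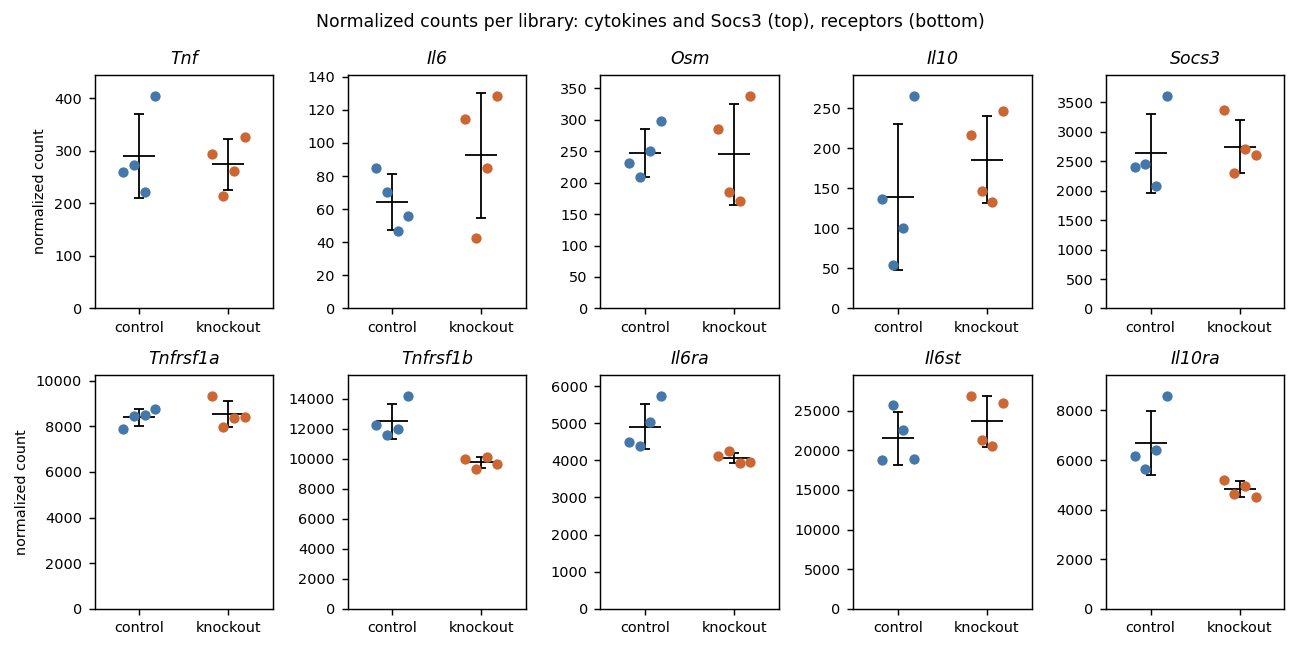
Normalized counts (vertical axis, from 0) of the 10 members in the 4 control and 4 knockout libraries. Points are libraries, and bars are the mean and SD. Tnfrsf1b, Il6ra and Il10ra are the panels in which knockout points all lie below control points.

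Il10ra, the ligand-binding chain of the IL-10 receptor (chromosome 9, 45253837 to 45269149), measured 6177, 5632, 6405 and 8580 in control and 5198, 4643, 4966 and 4511 in knockout replicates 1 to 4. The groups did not overlap, but control replicate 4 stood well above the other controls. The difference was -0.46 (SE 0.12) with an adjusted p of 0.0772 from limma, so Il10ra did not pass. The 95% confidence interval of its fold was 0.604 to 0.880. When 1 library was left out the difference stayed between -0.53 and -0.33 and did not pass (limma adjusted p 0.0547 to 0.159). Without control replicate 4 it was -0.33 (SE 0.07, limma adjusted p = 0.0582). The authors' deposited table lists Il10ra at an adjusted p of 0.00605.

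Il10rb, the second chain of that receptor and not one of the 10 members, fell in the limma fit. Its values were 8115, 6858, 7069 and 7370 in control and 5828, 6279, 6243 and 5933 in knockout replicates 1 to 4, again without overlap. The difference was -0.27 (SE 0.06, limma adjusted p = 0.0466). The ratio of Il10ra to Il10rb overlapped between groups (0.913 ± 0.178 in control and 0.797 ± 0.0675 in knockout libraries, SD, n = 4). Il10rb no longer passed when 1 library was left out in 7 of 8 cases, nor in edgeR (adjusted p = 0.0531). Nor did it pass with equal totals or with quantile normalization (limma adjusted p = 0.0933 and 0.116). In the annotation Il10rb shares exon bases with Gm21970, and Il6ra with Gm42809, so the assignment of some reads to Il10rb and Il6ra is uncertain.

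Il6ra (chromosome 3, 89864059 to 89913196) encodes the chain that binds IL-6. It measured 4501, 4381, 5017 and 5728 in control and 4101, 4236, 3927 and 3963 in knockout replicates 1 to 4. The groups did not overlap, though knockout replicate 2 lay just under control replicate 2. The difference was -0.27 (SE 0.08, limma adjusted p = 0.116) and did not pass, with a 95% confidence interval of the fold of 0.729 to 0.947. The authors' deposited table lists it at an adjusted p of 0.0383.

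Il6st, the gp130 gene (chromosome 13, 112464070 to 112510086), measured 18826, 25749, 22596 and 18921 in control and 26836, 21271, 20488 and 25984 in knockout replicates 1 to 4. The groups overlapped, with high and low libraries in each. The difference was 0.14 (SE 0.13, limma adjusted p = 0.584), and the fold had a 95% confidence interval of 0.899 to 1.35. The ratio of Il6ra to Il6st overlapped between groups (0.234 ± 0.0547 in control and 0.174 ± 0.0249 in knockout libraries, SD, n = 4).

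**Figure D2:**
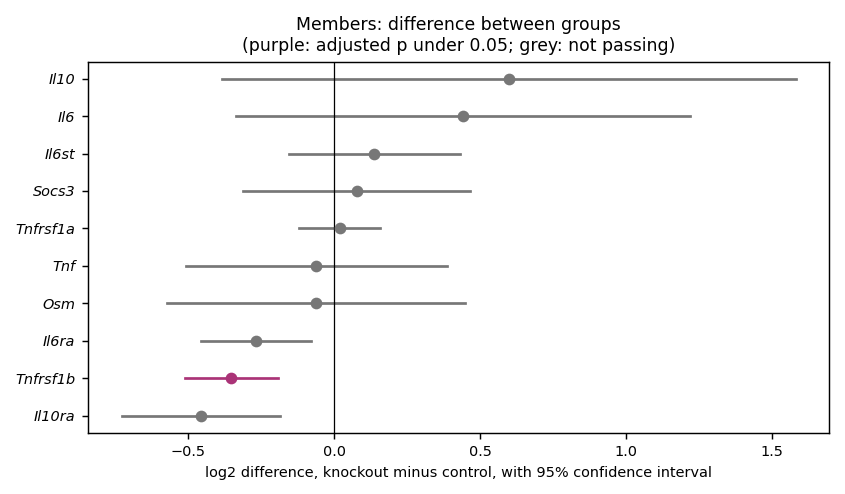
Log2 difference, knockout minus control (horizontal axis), with its 95% confidence interval for each member. Tnfrsf1b (-0.35) is the member that passed, Il10ra and Il6ra have intervals below 0 but did not pass after adjustment, and the widest intervals are those of Il10 and Il6.

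The cytokine genes were measured at far lower counts and spread more between libraries. Tnf (chromosome 17, 35199381 to 35202007) measured 259, 273, 221 and 404 in control and 294, 214, 260 and 326 in knockout replicates 1 to 4. Control replicate 4 was the highest of all 8, and the other controls (221 to 273) lay within the wider knockout range (214 to 326). The difference was -0.06 (SE 0.20, limma adjusted p = 0.896), with a 95% confidence interval of the fold of 0.704 to 1.31. It was 0.11 without control replicate 4 and 0.051 without knockout replicate 2, so its sign turned when either library was left out.

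Il6 (chromosome 5, 30013114 to 30019981) was the least abundant member, with no fewer than 39 reads in any library. It measured 85.1, 70.1, 46.6 and 55.9 in control and 114, 42.9, 85.0 and 128 in knockout replicates 1 to 4. Knockout replicate 2 had the lowest value of all 8 libraries, while knockout replicates 1 and 4 lay above every control and knockout replicate 3 level with the highest control. The difference was 0.44 (SE 0.34, limma adjusted p = 0.506), and its interval, a fold of 0.792 to 2.33, includes both a fall and a more than doubled level. Without knockout replicate 2 the difference was 0.77 (limma adjusted p = 0.136), and without knockout replicate 4 it was 0.25 (limma adjusted p = 0.747).

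Il10 (chromosome 1, 131019845 to 131024974) measured 137, 53.9, 100.03 and 266 in control and 216, 147, 133 and 247 in knockout replicates 1 to 4. The control libraries spanned the whole knockout range, with a coefficient of variation of 65.4% against 29.4%. The difference was 0.60 (SE 0.43, limma adjusted p = 0.473), with a 95% confidence interval of the fold of 0.766 to 2.99. It ranged from 0.22 without control replicate 2 to 0.98 without control replicate 4 and did not pass in either fit.

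Osm (chromosome 11, 4236420 to 4241026), whose product signals through gp130 with its own receptor chain, measured 232, 209, 250.1 and 298 in control and 286, 185, 171 and 338 in knockout replicates 1 to 4. Knockout libraries held both the 2 lowest values and the highest, so the groups overlapped. The difference was -0.06 (SE 0.23, limma adjusted p = 0.909), and the 95% confidence interval of the fold was 0.673 to 1.36. Its sign turned in 3 of 8 leave-one-out fits (-0.24 to 0.090), those without control replicate 4, knockout replicate 2 or knockout replicate 3.

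Socs3 (chromosome 11, 117966079 to 117970047), a direct STAT3 target, measured 2397, 2460, 2074 and 3610 in control and 3368, 2307, 2706 and 2608 in knockout replicates 1 to 4. Control replicate 4 was again the highest library and control replicate 3 the lowest. The difference was 0.08 (SE 0.17, limma adjusted p = 0.840), with a 95% confidence interval of the fold of 0.806 to 1.38. Its sign turned without control replicate 3 (-0.026) or knockout replicate 1 (-0.024).

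Control replicate 4, highest for Tnf, Il10 and Socs3, also had the highest summed level of 11 immediate early and stress genes that handling of tissue is known to induce (Fos, Jun, Egr1, Dusp1 and others). That sum was 90585, 102465, 118326 and 189119 in control and 138890, 83739, 92426 and 110123 in knockout replicates 1 to 4. Knockout replicate 2, lowest of its group for Tnf, Il6 and Socs3, was lowest of its group in this sum too. Tnfrsf1b, Il6ra and Il10ra were also highest in control replicate 4 (14162, 5728 and 8580). Tnfrsf1b and Tnfrsf1a were also lowest of the knockout group in replicate 2 (9278 and 7972). Other values went otherwise. Il6 and Il6st did not peak in control replicate 4 (55.9 and 18921). Osm and Tnfrsf1a were highest of the controls there (298 and 8773) but higher in a knockout library. Il10, Osm, Il6ra and Il6st were lowest of the knockout group in replicate 3 (133, 171, 3927 and 20488), and Il10ra in replicate 4 (4511). Of the 11 genes 0 passed in limma, edgeR or DESeq2, and 1 had an unadjusted limma p under 0.05. The part of this library difference in the spread of the cytokine genes, or in the receptor values, was not tested.

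Divided by the length of the longest protein-coding transcript in the annotation, control levels ran from Tnfrsf1a (3894 ± 177 normalized counts per kb, SD, n = 4) through Tnfrsf1b (3269 ± 301), Il6st (2480 ± 383), Il10ra (1915 ± 370), Socs3 (1033 ± 263), Il6ra (568 ± 71.0), Tnf (177 ± 48.7), Osm (109 ± 16.7) and Il10 (106 ± 69.4) to Il6 (27.5 ± 7.19). All 5 receptor chains thus stood above the 4 cytokines. Control ranges overlapped between the neighbours Tnfrsf1a and Tnfrsf1b, Il6st and Il10ra, and Osm and Il10, while the other neighbours did not overlap. In the knockout libraries Tnfrsf1b (2556 ± 97.2 per kb) lay within the range of Il6st (2361 to 3092) and below that of Tnfrsf1a (3697 to 4324). The transcripts in use were not determined, so these levels depend on the length assumed.

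**Figure D3:**
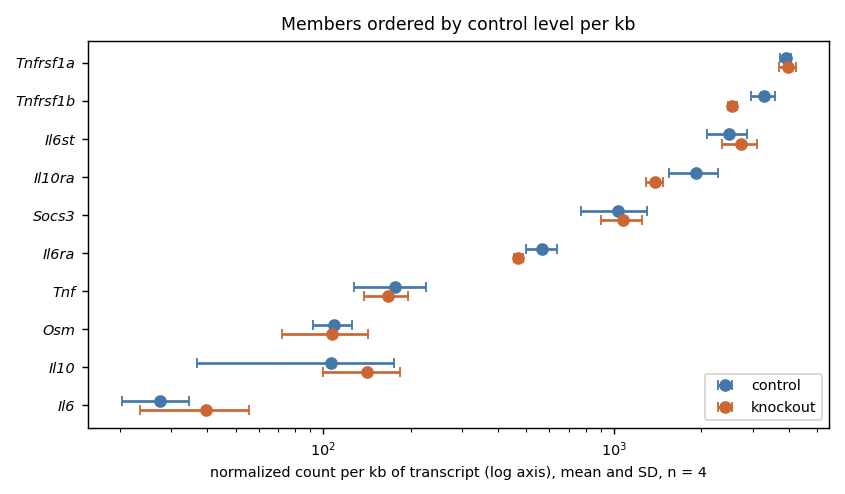
Normalized count per kb of the longest protein-coding transcript (logarithmic horizontal axis), mean and SD of 4 libraries per group, with members ordered by control level. Receptor chains lie at 470 or more per kb and cytokine genes at 177 or less.

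Because the libraries are bulk RNA, fewer cells of a type and less RNA per cell cannot be told apart. The defining macrophage marker Adgre1 and the other 9 genes of the macrophage list were all detected in every library. Apart from Lyz2, 5 of 9 macrophage markers fell (Csf1r, Cd68, Itgam, Mpeg1 and Msr1), 0 rose, and their median difference was -0.44. Over all genes 2.38% passed as lower. With Lyz2 included, all 10 were lower, 8 at an unadjusted limma p under 0.05. DESeq2 called 8, Fcgr1 and Cd14 among them. Adgre1 did not pass in limma or DESeq2. The 9 markers without Lyz2 summed to between 233038 and 298015 per control library and between 184586 and 196265 per knockout library. Stromal transcripts were abundant. The 9 endothelial and mural markers summed to 79110 to 134512 in the control libraries and 128746 to 176073 in those of the knockout group, and the 7 fibroblast markers to 94057 to 161145 and 128127 to 199164. Of these 16 genes 0 passed in limma or edgeR, and all were higher in knockout libraries (6 and 2 of them at an unadjusted limma p under 0.05, 2 and 1 in DESeq2).

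The mean log2 level of the 9 macrophage markers differed by -0.42 between groups, beside -0.35 for Tnfrsf1b, -0.46 for Il10ra and -0.27 for Il6ra. Set against these markers within each library, Tnfrsf1b was at -0.47 ± 0.09 in control and -0.40 ± 0.08 in knockout libraries (log2, SD, n = 4), which overlapped. Il10ra was at -1.38 ± 0.15 and -1.41 ± 0.12, and Il6ra at -1.82 ± 0.15 and -1.66 ± 0.07, which overlapped as well. Il10rb was at -1.23 ± 0.14 and -1.08 ± 0.03, higher relative to the markers in every knockout library than in any control library. Tnfrsf1a, set against the same markers, was at -1.04 ± 0.19 and -0.60 ± 0.13 without overlap, and Il6st at 0.31 ± 0.39 and 0.87 ± 0.23 with overlap. As the marker mean itself was lower in the knockout libraries, any gene that fell by less than it stands higher on this scale. The share of all genes without overlap on this scale was not computed. The part of macrophage content in the lower receptor values was not tested.

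**Figure D4:**
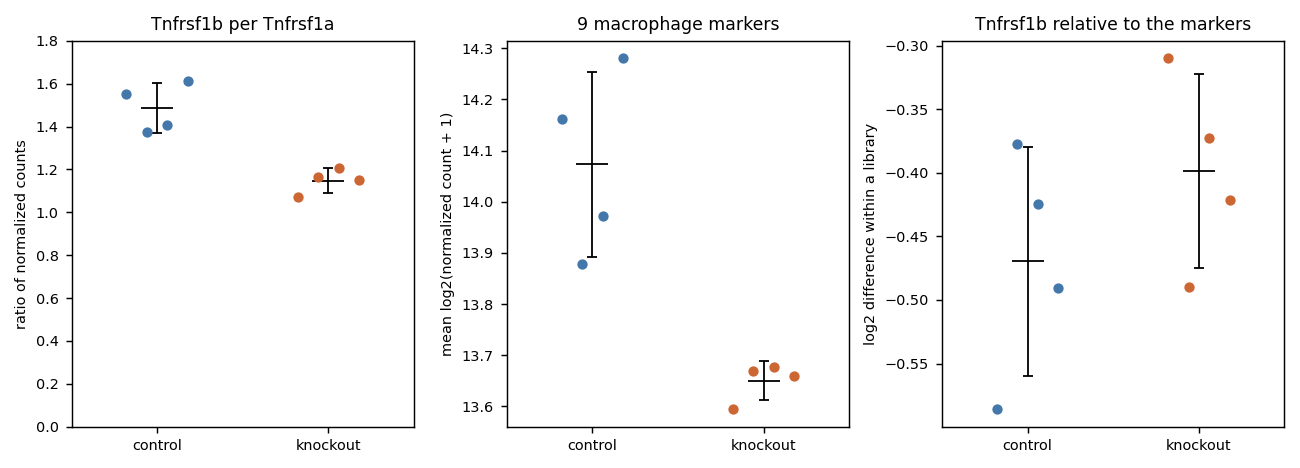
Left, ratio of Tnfrsf1b to Tnfrsf1a normalized counts per library. Middle, mean log2(normalized count + 1) of 9 macrophage markers. Right, log2 Tnfrsf1b minus that mean within each library (middle and right axes do not start at 0). Points are libraries, bars are mean and SD of 4. The groups separate in the left and middle panels and overlap in the right one.

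Markers of other cell types, some of which can make these cytokines, had lower sums than the stromal markers above. The 10 T and NK cell markers summed to 5001 to 6470 in the control libraries and 4253 to 4726 in those of the knockout group, without overlap. Of these markers 0 passed in limma or edgeR and 1 in DESeq2 (4 at an unadjusted limma p under 0.05). Of the 10, 9 were higher in knockout libraries and the median difference was 0.62, although the sum was lower, with Il7r lower in DESeq2. The sums were 636 to 1388 and 850.3 to 2259 for 6 B cell markers, and 982 to 1926 and 1054 to 1766 for 4 measured neutrophil markers. In both lists 0 genes passed in limma, edgeR or DESeq2 and 0 had an unadjusted p under 0.05. All 6 B cell markers (median 0.51) and 3 of 4 neutrophil markers (median 0.15) were nonetheless higher in knockout libraries. Dendritic cell markers (7 genes) summed to 1027 to 1691 and 2071 to 2292 without overlap, with 0 passing in limma or edgeR, 2 at an unadjusted limma p under 0.05 and 2 in DESeq2. All 7 were higher in knockout libraries (median 0.58). Eosinophil and mast cell markers (7 measured) summed to 990.0 to 1896 and 1603 to 2356, and 6 of the 7 were higher in knockout libraries (median 0.94). Siglecf passed as higher and Ccr3 as lower, 5 genes had an unadjusted limma p under 0.05 (4 of them higher), and DESeq2 also called Kit. Mesothelial markers (5) summed to 486 to 639 and 449 to 1037, and Upk1b passed as higher. Adipocyte markers (6) summed to 1303 to 1825 and 1871 to 2286 without overlap. Among the adipocyte genes 0 passed in limma or edgeR (2 at an unadjusted limma p under 0.05, 2 in DESeq2). Of the mesothelial markers 4 of 5, and of the adipocyte markers 5 of 6, were higher in knockout libraries. The part of these cells, and of the stromal cells above, in the cytokine values was not tested.

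Beyond the members, 82 of 87 other genes of the pathways were measured. In limma 3 rose, 1 fell and 78 did not pass, against 1.24% of all genes higher and 2.38% lower. Their median difference was 0.01.

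Genes of TNF production and shedding did not pass in limma or edgeR (0 of 10, median -0.09). Adam17, the protease that sheds TNF and its receptors, was the 1 gene with an unadjusted limma p under 0.05. It measured 7189 ± 855 in control and 5999 ± 243 in knockout libraries (SD, n = 4), a difference of -0.25 (SE 0.08, limma adjusted p = 0.129), and was lower in the DESeq2 fit. Adam17 shares exon bases with Iah1 in the annotation. Mapkapk2, a kinase that stabilises Tnf mRNA, differed by -0.20 (SE 0.10, limma adjusted p = 0.271).

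Of 25 genes of the receptor signalling complex 2 rose, 0 fell and 23 did not pass (median -0.02). Ripk3, the kinase that drives necroptosis, measured 738, 800, 768 and 982 in control and 1262, 1040, 1343 and 1231 in knockout replicates 1 to 4. It was higher in every knockout library, with a difference of 0.57 (SE 0.11, limma adjusted p = 0.0275), a fold of 1.48. Casp8, the apical caspase of death receptor signalling, rose from 3215 ± 84.6 to 3702 ± 143 (0.20, SE 0.05, limma adjusted p = 0.0491). The call of Ripk3 was lost in 6 of 8 leave-one-out fits and that of Casp8 in all 8 (adjusted p up to 0.0804 and 0.110). By edgeR 2 of the 25 were higher and by DESeq2 3 higher and 1 lower, where 3.51% and 10.9% of all genes were called.

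Of 12 genes known to be induced by TNF, Ccl2 rose, 0 fell and 11 did not pass (median -0.10). Ccl2, a chemokine that recruits monocytes, measured 801, 773, 879 and 766 in control and 1196, 1274, 1565 and 1279 in knockout replicates 1 to 4. The groups were far apart, with a difference of 0.72 (SE 0.09, limma adjusted p = 0.00641) that passed in each of the 8 fits leaving out 1 library. Traf1, a receptor adaptor that is in both this list and the complex list, measured 869 ± 153 and 1114 ± 165 (0.36, SE 0.14, limma adjusted p = 0.180).

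**Figure D5:**
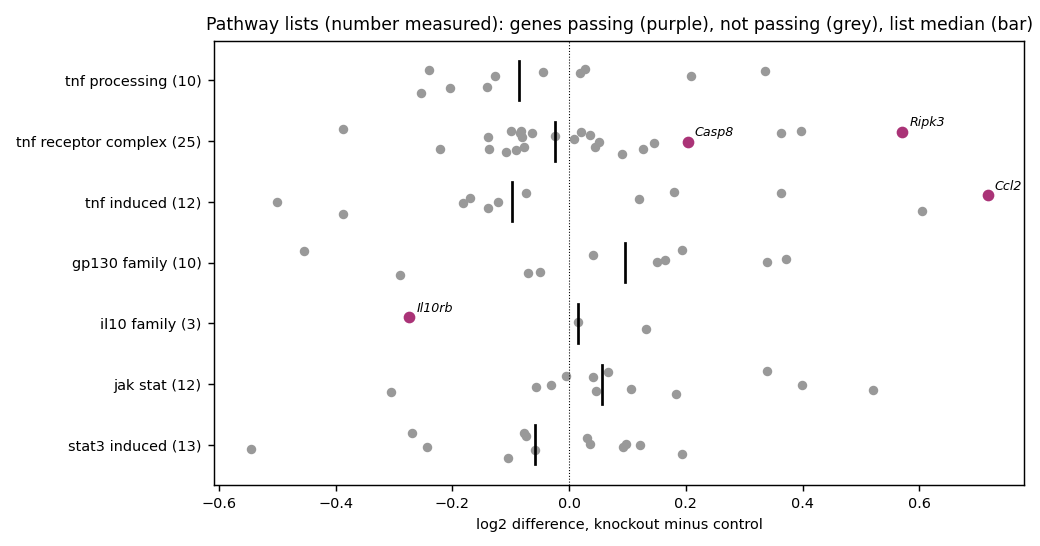
Log2 difference, knockout minus control (horizontal axis), of each measured gene in 7 pathway lists, with vertical scatter only to separate points and a bar at each list's median. Ripk3, Casp8, Ccl2 and Il10rb are the genes that passed, and the list medians lie between -0.10 and 0.10.

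Other cytokines and receptors of the gp130 family had 0 of 10 genes passing in limma or edgeR (median 0.10), with 3 at an unadjusted limma p under 0.05 and 1, Osmr, in DESeq2. Osmr, the receptor chain that pairs with gp130 to bind oncostatin M, measured 2064, 1867, 1839 and 1599 in control and 2237, 2321, 2114 and 2647 in knockout replicates 1 to 4, without overlap. Its difference of 0.34 (SE 0.09, limma adjusted p = 0.0820) did not pass, and the authors' deposited table lists it at an adjusted p of 0.0172. Il27ra, the IL-27 receptor, measured 714 ± 82.9 and 582 ± 44.7 (-0.29, SE 0.10, limma adjusted p = 0.133). Il27ra shares exon bases with Palm3 in the annotation. In the IL-10 family 3 of 7 genes were measured, of which Il10rb fell in limma and DESeq2, as given above, and 0 passed in edgeR. Ifnlr1, a receptor chain for interferon lambda, measured 9.70 ± 4.05 and 12.1 ± 9.13, with a 95% confidence interval of the fold of 0.490 to 2.45 and no call (limma adjusted p = 0.916).

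The relay below the receptors showed no call. Of 12 JAK-STAT genes 0 passed in limma, edgeR or DESeq2 and 1 had an unadjusted limma p under 0.05 (median 0.06). Stat3 itself measured 7264 ± 473 and 6974 ± 167 (-0.06, SE 0.06, limma adjusted p = 0.608), and Jak1, the kinase that serves both receptors, 10673 ± 339 and 10628 ± 305. Both are named outside the rule for named genes, with their values already known. Socs2 (0.40, SE 0.14, limma adjusted p = 0.156) and Socs1 (0.52, SE 0.24, limma adjusted p = 0.254), relatives of Socs3, were the genes of this list with the smallest p. Of 13 genes known to be induced through STAT3, 0 passed in limma, edgeR or DESeq2 and 1 had an unadjusted limma p under 0.05 (median -0.06). Mcl1, a survival factor, differed by -0.27 (SE 0.11, limma adjusted p = 0.217). Ddit4, an inhibitor of mTORC1 induced by IL-10, differed by -0.55 (SE 0.29, limma adjusted p = 0.326). Without control replicate 2, whose Ddit4 value of 1800 lay below the other controls, the difference of Ddit4 was -0.88 (limma adjusted p = 0.0231).

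Among 12360 genes with a mean of at least 100, the patterns most like those of the cytokines over the 8 libraries were found by Pearson r of log2 values, as a description only. They were Rsbn1l (0.96), Zswim6 (0.93) and Sowahc (0.91) for Tnf, Nlk (0.98), Serf2 (0.92) and Zfp433 (0.92) for Il6, and Fbh1 (0.94), N4bp1 (0.93) and Ptgs2 (0.92) for Il10. For Socs3 they were Il2rg (0.96), Endog (0.95) and Tmem205 (0.95). These values share the same 8 libraries and their scaling, and each gene was picked as the highest r in the search.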

How the data were processed

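Poly(A)-selected RNA from F4/80-positive cells was sequenced, per the labels' protocols. The authors deposited normalized gene counts per library (a non-negative signal). FastQC, cutadapt, Salmon, DESeq2 and mm10 are named, with no versions, in the submitters' processing notes. Within 0.01 reads, 100% of values were whole multiples of 1 step per library, which gave recovered reads (in control replicate 4 the step lies near 1). The authors also deposited a DESeq2 comparison with, per the file headers, a log2 fold change (control over knockout, sign turned here), its standard error and statistic (score columns) and p-values. Symbols turned into dates (19) are not named.

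The main test was limma 3.58.1 (R 4.3.3) with trended eBayes on log2(value + 1), which understates changes of low genes, for 15862 genes (mean 10 or more). Two-sided p-values were adjusted after Benjamini and Hochberg with a threshold of 0.05. The fit was also run on simulated counts in which every gene had the same dispersion. Real genes differ in spread, so that run does not show how the fit performs on these data. edgeR 4.0.16 and DESeq2 1.42.0 were run on recovered reads as alternatives, beside pseudocounts of 0.5 and 5, no filter, a mean of at least 50, equal totals, quantile normalization, eBayes without trend, a replicate block and leaving out each library. Replicates of a group differed by more than counting noise (lowest chi-square per gene 8.99), and none was merged. The sources used here give neither the strand setting nor the annotation used for counting.

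The members, lists and tests were chosen with earlier results of these data known. Named genes are the members, each pathway list's genes past the threshold and its 2 with the smallest p, the 3 genes most correlated with Tnf, Il6, Il10 and Socs3, and Lyz2. Confidence intervals of folds are 95% and come from the same fit.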

Additional observations from a re-analysis of the deposited data

Results flagged for a closer look

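In 2 of 50 groups of 4 libraries examined, 1 library lay far from the other 3 by Dixon's ratio, where chance alone gives about 1 in 20. Traf1 measured 1362 in knockout replicate 1 and 1028 to 1038 in the other knockout libraries. Socs1 measured 135 in control replicate 4 and 67.1 to 78.6 in the other controls.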

How the results depend on the processing

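The number of members passing was 1 under both pseudocounts, both filters, equal totals, quantile normalization and edgeR. Without the trend in eBayes, 292 genes, 0 members and 1 of the 82 pathway genes passed. DESeq2 called 1557, 3 and 8. Leaving out 1 library gave 163 to 502 genes, 0 to 1 members and 1 to 3 pathway genes, and Tnfrsf1b kept its call without control replicate 2 or 4. Over these 8 fits the difference changed sign for Tnf (-0.18 to 0.11), Tnfrsf1a (-0.024 to 0.051), Osm (-0.24 to 0.090), Socs3 (-0.026 to 0.24) and Ifnlr1 (-0.28 to 0.48). The other 20 of the 25 genes refitted (members, named pathway genes and Lyz2) kept their sign in the 18 alternatives; genes named only for a like pattern, Stat3, Jak1 and single markers were not followed there. With a replicate block 7 genes, 0 members and 0 pathway genes passed, and Tnfrsf1b had an adjusted p of 0.198. The labels do not say whether same-numbered libraries were handled together. Deviations of same-numbered libraries correlated at -0.29 to -0.04, and 0 of 4 controls correlated best with their own number. Those correlations rest on 4 libraries centred within each group, so they do not settle whether the libraries were paired. The cause of the changes between these fits was not tested, and the fits that left 1 library out also held fewer libraries. Depth was low for Il6 (39 to 130 reads per library), Il10 (53 to 266) and Ifnlr1 (5 to 23).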
